A study of Mus musculus with 18 samples.

Results

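This account follows 7 genes through 18 samples of ipsilateral dorsal horn of the spinal cord (DHSC): Gad1, Gad2, Slc32a1, Slc6a11, Abat, Gabbr1 and Gabbr2, which together cover the synthesis, vesicular loading, uptake and breakdown of GABA and its metabotropic receptor. They were chosen by name, by matching their symbols to the Ensembl IDs of the count table, and all 7 were found among its 55573 genes and passed the filter on low counts. The samples came from C57BL/6 mice aged 8 to 12 weeks, taken 2 h after 2% formalin had been injected into a hindpaw, an irritant that evokes phases of licking and lifting of the paw. The 3 groups of 6 samples each were F1/proestrus females, F2/metestrus females and males. F1 and F2 denote females with a short and a long quiet period between the phases of behaviour. The behavioural class and the estrus stage came together in each female group and cannot be told apart. All 18 mice had received formalin. Samples without formalin were not analysed here, so every comparison lies between treated groups and none shows a response to formalin. Each sample is a bulk RNA library of the dissected tissue, and fewer cells of a type and less RNA per cell cannot be told apart in it. The sources do not give any pooling of animals, and p-values measure the spread between these samples.

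GABA is the main fast inhibitory transmitter of the spinal dorsal horn, alongside glycine, and dorsal horn inhibition limits the passage of nociceptive input to projection neurons. It is made from glutamate by glutamate decarboxylase, an enzyme with isoforms GAD67 (Gad1) and GAD65 (Gad2), and packed into synaptic vesicles by the vesicular inhibitory amino acid transporter VGAT (Slc32a1), which also carries glycine. After release it is taken up by membrane transporters, among them the mainly astrocytic GAT-3 (Slc6a11), and degraded by mitochondrial GABA transaminase (Abat). The GABA-B receptor is a G protein-coupled receptor that works as an obligate heterodimer: the subunit of Gabbr1 binds the ligand, and the subunit of Gabbr2 carries the receptor to the surface and couples it to Gi/o proteins.

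The start regions of the gene pairs that act as isoforms or as partners are shown because their members are compared with each other below. They come from the RefSeq promoter table on GRCm38.p6, which held 6 of the 7 genes. Each window covered the 250 bases before the start in that table, and the stretches printed leave out bases that lie in an exon of GENCODE vM21. Such exon bases numbered 87 in the window of Gad1, 122 in Gad2, 159 in Gabbr2 and 0 in Gabbr1. They numbered 196 in Slc32a1 and 0 in Slc6a11. The window of Gad1 lies inside the span of the gene given below. Capitals mark a match, on either strand, to the TATA box (TATAAA), the CCAAT box (CCAAT), the GC box (GGGCGG) or the cAMP response element (TGACGTCA). The stretches are chr2:70561879-70562041 on the plus strand for Gad1, chr2:22622077-22622204 on the plus strand for Gad2, chr17:37045716-37045965 on the plus strand for Gabbr1 and chr4:46991874-46991964 on the minus strand for Gabbr2.
Gad1: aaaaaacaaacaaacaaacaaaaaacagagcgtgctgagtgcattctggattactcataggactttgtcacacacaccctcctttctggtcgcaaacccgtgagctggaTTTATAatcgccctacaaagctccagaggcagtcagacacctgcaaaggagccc
Gad2: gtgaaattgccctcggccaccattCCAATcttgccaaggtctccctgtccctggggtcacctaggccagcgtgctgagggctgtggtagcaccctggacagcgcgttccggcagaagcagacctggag
Gabbr1: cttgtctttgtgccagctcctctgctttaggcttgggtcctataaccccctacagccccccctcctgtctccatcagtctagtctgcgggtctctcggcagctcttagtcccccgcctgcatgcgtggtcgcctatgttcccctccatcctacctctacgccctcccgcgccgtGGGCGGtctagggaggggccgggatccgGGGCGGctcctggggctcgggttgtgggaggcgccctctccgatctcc
Gabbr2: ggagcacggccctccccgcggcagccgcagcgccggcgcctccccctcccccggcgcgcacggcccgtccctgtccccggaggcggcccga

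Over the whole windows of 250 bases, exon bases included, Gad1 held 1 TATAAA and 1 GGGCGG, and Gad2 held 1 CCAAT. Gabbr1 held 2 GGGCGG matches, Gabbr2 also held 2, and Slc6a11 held 3. Slc32a1 held a match to none of the 4 motifs, and TGACGTCA was found in none of the 6 windows. Of all 32851 promoter windows of this length in the table, 12.4% held TATAAA, 33.8% held CCAAT, 32.7% held GGGCGG and 1.55% held TGACGTCA. The 2 decarboxylase windows therefore differed in the motifs they held, whereas both receptor windows held GC boxes. The windows were G and C rich, with 58.0% G and C in Gad1, 64.0% in Gad2, 66.0% in Gabbr1 and 80.8% in Gabbr2 against a median of 52.4% over all windows. A match describes the letters and not a binding site.

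The genes lie on 5 chromosomes of GRCm38. Gad1 spans chr2:70553072-70602014, Gad2 chr2:22622205-22693874 and Slc32a1 chr2:158610767-158615748, all on the plus strand. Slc6a11 spans chr6:114131241-114249952, Abat chr16:8513429-8621568 and Gabbr1 chr17:37045966-37075067, also on the plus strand, and Gabbr2 spans chr4:46662305-46991873 on the minus strand. Slc32a1 was the member that shared exon bases with another annotated gene. The antisense gene Gm14205, at chr2:158610910-158611820, shares 697 exon bases with it, which is 24.9% of the exon length of Slc32a1 and 94.3% of that of Gm14205. The shared stretch holds 365 coding bases, and its first 120 from the start codon (capitals), chr2:158611242-158611361 on the plus strand from the GENCODE transcript, are shown because they are part of the sequence over which the count of Slc32a1 depends on the handling of strand.
Slc32a1: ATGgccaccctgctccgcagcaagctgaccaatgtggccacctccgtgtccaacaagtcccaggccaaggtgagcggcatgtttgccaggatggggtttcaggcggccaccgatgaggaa

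The strand setting of the counting is not given in the sources used here. Without strand, reads of Slc32a1 and Gm14205 over these bases cannot be told apart. Gm14205 was counted at 10.1 ± 1.08 CPM, the counts scaled to library size (SD, n = 18), between 19.2% and 22.9% of the CPM of Slc32a1 in the same sample, so the values of Slc32a1 are uncertain by reads in this overlap.

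Total counts per sample ranged from 73590509 to 125724156. In the header of the deposited counts, replicates 1 to 3 carry library numbers between 27 and 35 and replicates 4 to 6 numbers between 188 and 196, and each of these library series holds 3 samples of every group. What the series stand for is not given in the sources used here, and they are given below as replicates 1 to 3 and replicates 4 to 6. All 12 markers of inhibitory and all 14 markers of excitatory dorsal horn neurons were above 0 in every sample. F1/proestrus replicate 5 stood apart: the summed level of 8 dorsal root ganglion markers was 644 CPM there and at most 37.8 CPM in the other 17 samples, and the sum of 9 markers of ventral and motor neurons was 338 CPM against at most 207 CPM. The sum of 6 Schwann cell markers ranged from 1898 to 4592 CPM in males and from 1299 to 2676 CPM in females.

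Compared per length, the genes that clear and degrade GABA had the highest levels. RPKM, the CPM divided by the length of the merged exons in kilobases, was 125 ± 9.75 for Abat (SD, n = 18) and 87.5 ± 5.49 for Slc6a11. It was 35.0 ± 4.44 for Gabbr1, 32.2 ± 2.85 for Gabbr2, 31.7 ± 1.70 for Gad1, 22.0 ± 1.96 for Gad2 and 17.1 ± 1.38 for Slc32a1. Abat exceeded Slc6a11, Slc6a11 exceeded Gabbr1 and Gad1 exceeded Gad2 in 18 of 18 samples with ranges that did not overlap. Gabbr1 exceeded Gabbr2 in 15 of 18 samples with ranges that overlapped. Gabbr2 exceeded Gad1 in 9 of 18 samples, and these neighbours do not differ beyond their spread. Gad2 exceeded Slc32a1 in 18 of 18 samples, although their ranges over the samples overlapped.

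The order in the middle depended on the length used. With the length of the longest transcript in place of merged exons, Gad1 stood at 67.2 ± 3.6 RPKM, above Gabbr1 at 51.8 ± 6.57 and Gabbr2 at 37.5 ± 3.31, because its merged exons of 7639 bases include many that are not in its longest transcript of 3601 bases. Abat stood at 209 ± 16.3 and Slc6a11 at 107 ± 6.71 on that scale, again the highest of the 7. Gad2 at 22.5 ± 2.00 and Slc32a1 at 17.1 ± 1.38 were again the lowest.

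**Figure D1:**
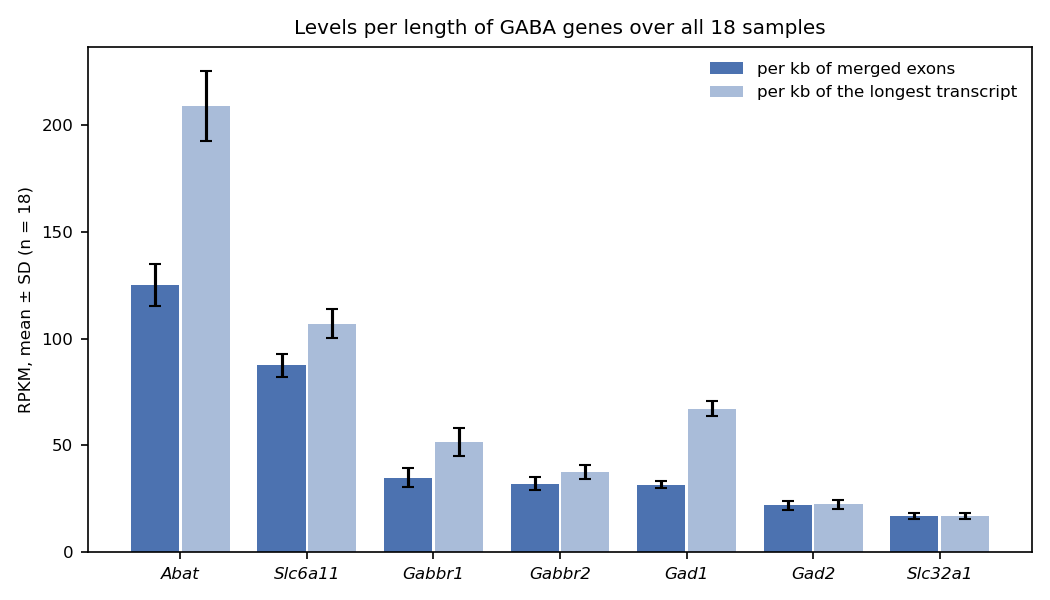
Level per length of the 7 genes over all 18 samples: bars give the mean RPKM, error bars the SD, dark bars the length of merged exons and light bars that of the longest transcript. Abat and Slc6a11 stand above the other genes on both scales, and Gad1 changes its place from 31.7 to 67.2 RPKM.

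The decarboxylases were at like levels in the 3 groups. The level of Gad1, in TMM-normalised CPM, was 225 at the lowest, 243 at the median and 272 at the highest in F1/proestrus. It was 229, 241 and 257 in F2/metestrus and 226, 237 and 247 in males. The lowest sample and the highest were both F1/proestrus, so that the range of this group enclosed those of the other groups. The level of Gad2 was 118, 129 and 153 CPM in F1/proestrus, 112, 135 and 142 CPM in F2/metestrus, and 116, 124 and 139 CPM in males. Its groups overlapped over most of their ranges. Gad1 varied little: the SD of its log2 CPM within groups was 0.073, and only 9.63% of the 5667 genes with a mean over 40 CPM had a smaller one. The same SD was 0.13 for Gad2, against a median of 0.12 over those genes.

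Slc32a1, the vesicular transporter, was counted at 40.2 CPM at the lowest, 46.7 at the median and 53.9 at the highest in F1/proestrus. It reached 43.2, 48.5 and 50.4 CPM in F2/metestrus and 43.0, 49.2 and 55.6 CPM in males. Each group held samples below and above 48 CPM.

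Of the clearance genes, Slc6a11 was counted at 418, 436 and 459.9 CPM in F1/proestrus, at 432, 457 and 486 CPM in F2/metestrus, and at 368, 433 and 467 CPM in males, again as lowest, median and highest. The lowest of all samples was male replicate 4 and the highest F2/metestrus replicate 1, and all 3 ranges overlapped. Abat was counted at 892, 973 and 1019 CPM in F1/proestrus, at 859, 1035 and 1054 CPM in F2/metestrus, and at 810.0, 955 and 1028 CPM in males. Its 9 samples of replicates 1 to 3 lay between 999 and 1054 CPM whatever the group, whereas those of replicates 4 to 6 lay between 810.0 and 1029.5 CPM.

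Gabbr1, the ligand-binding subunit, was counted at 235, 269 and 319.9 CPM in F1/proestrus, at 240.4, 270.4 and 317 CPM in F2/metestrus, and at 219.5, 265 and 320.2 CPM in males. It had the widest spread of the 7 genes, with an SD of log2 CPM within groups of 0.19. Of the genes over 40 CPM, 85.5% had a smaller one. This SD includes the difference between the library series given below. Within replicates 1 to 3 and 4 to 6 the SD of its CPM was 6.83% and 7.20% of the mean. It was 8.96% and 7.30% for Gad2, and 8.05% and 8.65% for Slc32a1. Gabbr2, the coupling subunit, was counted at 202, 213 and 226 CPM in F1/proestrus, at 181, 218 and 228 CPM in F2/metestrus, and at 188, 222 and 256 CPM in males. The 3 highest samples were males, and the lowest was F2/metestrus replicate 5, followed by a male.

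**Figure D2:**
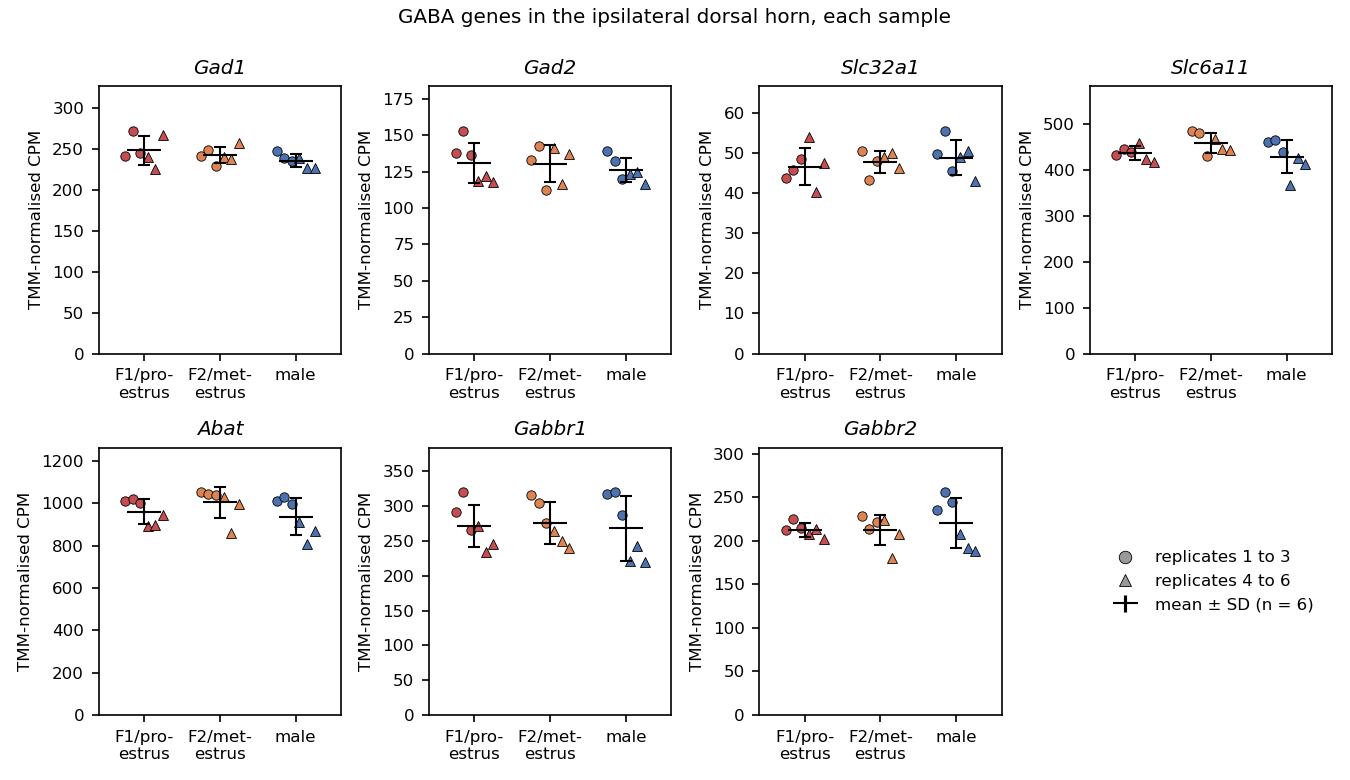
Level of each gene in each sample, in TMM-normalised CPM from 0, by group: circles are replicates 1 to 3, triangles replicates 4 to 6, and bars the mean and SD of 6 samples. The groups overlap for all 7 genes, and for Gabbr1, Abat and Gabbr2 the triangles lie mostly below the circles.

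Between the female groups, no difference in a GABA gene was detected. In edgeR's quasi-likelihood test on the 12 females, with Benjamini-Hochberg adjustment over 24042 genes, 0 of the 7 genes passed a false discovery rate (FDR) of 5%, where the share of all genes called was 0% (0.0). None reached an unadjusted p under 0.05, which 2.48% of all genes did (596), and DESeq2 called 0 of the 7 and 2 genes in all. All 7 adjusted p were 1.0. The differences, F2/metestrus minus F1/proestrus on the log2 scale, ran from -0.038 for Gad1 to 0.069 for Slc6a11 with a median of 0.018, beside a median of -0.00038 over all genes tested.

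By role, the decarboxylases differed by -0.038 (SE 0.053) for Gad1 and -0.0079 (SE 0.080) for Gad2, and the vesicular transporter Slc32a1 by 0.034 (SE 0.067). The clearance genes differed by 0.069 (SE 0.045) for Slc6a11 and 0.062 (SE 0.059) for Abat. The receptor subunits differed by 0.018 (SE 0.084) for Gabbr1 and -0.0034 (SE 0.058) for Gabbr2. The data bound each difference closely: the 95% interval reached at most 1.15-fold in either direction for Gabbr1, the farthest, and 1.09-fold for Gabbr2, the least far. The narrowest interval was that of Slc6a11, from 0.982-fold to 1.12-fold. The 2 groups overlapped for all 7 genes, where 0.108% of all genes tested did not overlap.

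Within the library series, Gad2 had the largest differences of the 7 genes between the female groups. It was lower in F2/metestrus by 0.15 on the log2 scale in replicates 1 to 3 and higher by 0.14 in replicates 4 to 6. The test of this difference between the series, an interaction term, gave 0.27 (SE 0.13; edgeR, unadjusted p = 0.056, adjusted p = 1.0). No member reached an unadjusted p under 0.05 for this term, and 3.13% of all genes did. The sign also differed between the series for Gad1, with -0.083 and 0.0060, and for Gabbr2, with 0.016 and -0.027. Slc6a11 differed by 0.078 and 0.059, Abat by 0.044 and 0.079, Slc32a1 by 0.030 and 0.037, and Gabbr1 by 0.025 and 0.0059, each with the same sign in both series. Without F1/proestrus replicate 5, the sample with dorsal root ganglion markers, again 0 of the 7 genes passed the test.

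Between the sexes no GABA gene passed the test either. Males were compared with the 12 females as a single condition, and 0 of the 7 genes passed an FDR of 5% in edgeR, where 0.197% of the 24862 genes tested did (49 genes). At an unadjusted p under 0.05 there were 0 of 7 against 9.72% of all genes, and DESeq2 also called 0 of the 7. The differences, male minus female on the log2 scale, were negative for 5 genes and positive for 2, with a median of -0.054 beside -0.0013 over all genes.

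Gad1 differed by -0.059 (SE 0.041; adjusted p = 0.640 in edgeR) and Gad2 by -0.054 (SE 0.062). Slc32a1 differed by 0.050 (SE 0.059), and the clearance genes by -0.062 (SE 0.047) for Slc6a11 and -0.067 (SE 0.056) for Abat. Gabbr1 differed by -0.028 (SE 0.087; adjusted p = 0.929 in edgeR) and Gabbr2 by 0.052 (SE 0.062). The 95% intervals reached at most 1.16-fold for Gabbr1 and 1.11-fold for Gad1, the widest and the narrowest. The sexes overlapped for all 7 genes, against 0.125% of all genes without overlap. Of the 6 Schwann cell markers, 1 (Ncmap) passed the test between the sexes and 5 had an unadjusted p under 0.05. Their median difference, male minus female, was 0.64 on the log2 scale. The ranges of their sum overlapped, also without F1/proestrus replicate 5, which held the highest of the females and without which they reached 1937 CPM. Of 7 dorsal root ganglion markers tested, 6 also had an unadjusted p under 0.05 in edgeR, with a median difference of -3.55. Their sum was high in F1/proestrus replicate 5 alone. This p was also reached by 5 of 14 excitatory markers (median 0.15) and 2 of 9 ventral and motor markers (median -0.56). Each other marker list held at most 2. The part of these cells in the differences of the GABA genes was not tested.

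**Figure D3:**
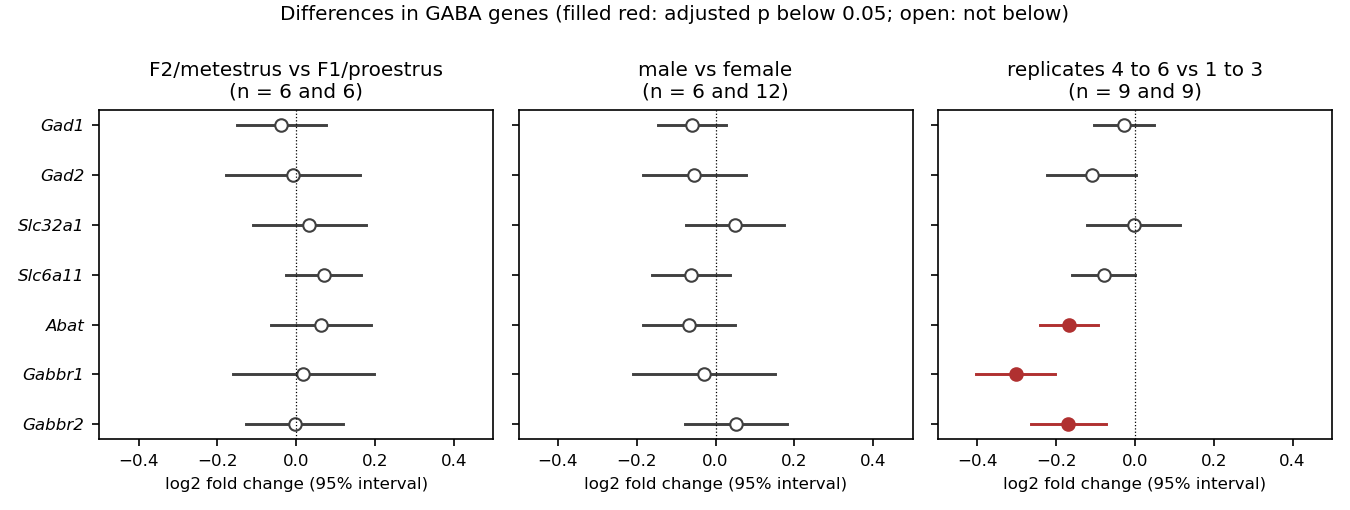
Log2 fold change of each gene with its 95% interval in 3 comparisons: F2/metestrus against F1/proestrus, male against female, and replicates 4 to 6 against 1 to 3. Intervals of the first 2 comparisons all include 0. In the third all 7 genes lie below 0, and 3 of them (filled red) have an adjusted p below 0.05.

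The library series, in contrast, differed in the receptor genes and in Abat. In a fit of group and series over the 18 samples, 3 of the 7 genes were lower in replicates 4 to 6 at an FDR of 5%, beside 13.0% of all genes in that direction and 27.0% in both (6709 genes). Gabbr1 differed by -0.30 (SE 0.048; adjusted p = 1.06e-04 in edgeR), from 300.0 ± 20.5 CPM (SD, n = 9) in replicates 1 to 3 to 243 ± 17.5 CPM in replicates 4 to 6. Abat differed by -0.17 (SE 0.035; adjusted p = 0.00127) and Gabbr2 by -0.17 (SE 0.045; adjusted p = 0.00861). Gad2 (-0.11), Slc6a11 (-0.080), Gad1 (-0.028) and Slc32a1 (-0.0036) did not pass. Without F2/metestrus replicate 3, which had the lowest level of Gad2, that gene also passed, with -0.14. Thus the series differed more in Gabbr1 than any interval between the groups reached. The ranges of the series overlapped for all 7 genes, where 4.08% of all genes did not.

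Within the series, the receptor subunits were the members whose sex difference varied most. In replicates 1 to 3 the level of Gabbr2 was 235, 256 and 245 CPM in the 3 males, above all 6 females, which lay between 213 and 228 CPM. In replicates 4 to 6 it was 208, 191 and 188 CPM in the males and between 181 and 224 CPM in the females. Of the 7 genes, the sexes did not overlap for 1 (Gabbr2) in replicates 1 to 3, beside 3.85% of all genes, and for 0 in replicates 4 to 6, beside 5.24% of all genes. Gabbr2 did not pass the test in replicates 1 to 3 (adjusted p = 0.418 in edgeR). The difference, male minus female, was 0.15 in replicates 1 to 3 and -0.068 in replicates 4 to 6 for Gabbr2, and 0.047 and -0.14 for Gabbr1. The interaction of sex and series was -0.23 for Gabbr2 (unadjusted p = 0.0083 in edgeR) and -0.20 for Gabbr1 (unadjusted p = 0.035). Both had an adjusted p of 0.964, and 4.97% of all genes had an unadjusted p under 0.05 for this term. The other 5 genes differed by -0.049 and -0.080 for Gad1, -0.073 and -0.044 for Gad2, 0.095 and -0.0059 for Slc32a1, -0.0048 and -0.14 for Slc6a11, and -0.036 and -0.11 for Abat. Within neither series did a member pass the test between the sexes.

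Ratios between members of the same sample were compared as well, since these do not depend on the scaling between samples. The ratio of Gad1 to Gad2 in RPKM of merged exons was 1.47 ± 0.152 (SD, n = 6) in F1/proestrus, 1.44 ± 0.111 in F2/metestrus and 1.44 ± 0.0622 in males. The ratio of Gabbr1 to Gabbr2 was 1.10 ± 0.0991, 1.12 ± 0.0996 and 1.04 ± 0.0866 in the same order. The ratio of Slc32a1 to the sum of Gad1 and Gad2 was 0.305 ± 0.0379, 0.318 ± 0.0322 and 0.334 ± 0.0236. The size of these ratios depends on the length used, since by the longest transcript Gad1 stood at 67.2 and Gad2 at 22.5 RPKM. None of the 6 ratio comparisons differed beyond the spread between samples. In exact two-sided permutation tests the smallest p was 0.158, for Slc32a1 between the sexes, with an adjusted p of 0.584 over the 6 tests. The exact p for Gabbr1 to Gabbr2 between the sexes was 0.195, also with an adjusted p of 0.584, and the other 4 adjusted p were 0.886 or 0.887.

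The members varied together to different degrees. Over all 18 samples, 6 of the 21 pairs had a Pearson correlation of log2 CPM past an FDR of 5% (permutation test, 100000 resamples, adjusted over the 21 pairs), all positive. These were Gad1 with Gad2 (r = 0.57, rho = 0.63), Gad2 with Abat (r = 0.58, rho = 0.53), Slc6a11 with Gabbr1 (r = 0.74, rho = 0.72), Abat with Gabbr1 (r = 0.72, rho = 0.72), Abat with Gabbr2 (r = 0.76, rho = 0.74) and Gabbr1 with Gabbr2 (r = 0.72, rho = 0.74). Their adjusted p ranged from 0.00199 to 0.0434 for r and from 0.00630 to 0.0679 for rho, where Gad2 with Abat did not pass. By rho 7 pairs passed, among them Slc6a11 with Abat (rho = 0.64, r = 0.52, permutation test, adjusted p = 0.0216 for rho and 0.0657 for r) and Gad2 with Slc6a11 (rho = 0.58, r = 0.45, adjusted p = 0.0402 for rho and 0.134 for r). Without the 2 samples farthest from the median of the first gene, r was between 0.64 and 0.77 for the 6 pairs that passed by r, and 0.51 for each of the pairs that passed by rho alone.

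Within a series, 1 pair passed in replicates 1 to 3 and 0 in replicates 4 to 6, and 12 of the 21 pairs were positive in both. Gad1 and Gad2 had r = 0.89 over the 9 samples of replicates 1 to 3 (exact permutation p = 0.00114, adjusted 0.0240) and rho = 0.98 (exact permutation p = 4.96e-05, adjusted 0.00104), and r = 0.90 without the 2 farthest samples. In replicates 4 to 6 the same pair had r = 0.22 and rho = 0.23 (exact permutation p = 0.602 and 0.552). In that series Slc6a11 with Gabbr1 had the highest r, 0.84 (exact permutation p = 0.00284, adjusted 0.0597). Over replicates 1 to 3 and replicates 4 to 6, r was -0.062 and 0.73 for Gad2 with Abat, 0.67 and 0.84 for Slc6a11 with Gabbr1, 0.36 and 0.27 for Abat with Gabbr1, -0.12 and 0.73 for Abat with Gabbr2, and 0.46 and 0.28 for Gabbr1 with Gabbr2. None of these 5 pairs passed in either series, and the pooled test did not take the series into account. Whether a correlation differed between the series was not tested.

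**Figure D4:**
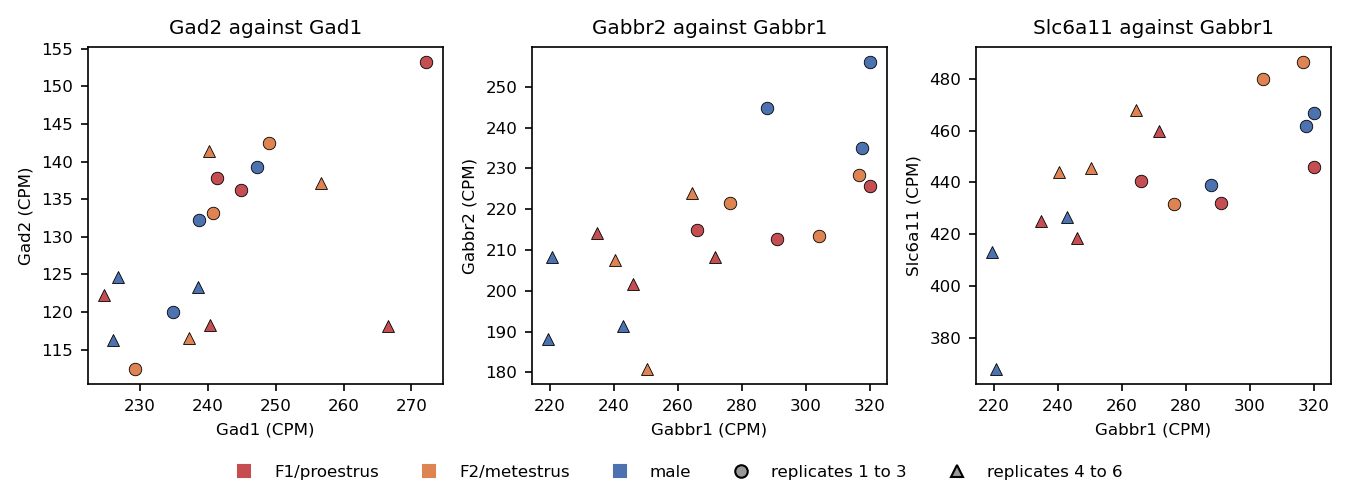
Level of a gene against another in each of the 18 samples, in CPM on axes that do not start at 0, for Gad2 against Gad1, Gabbr2 against Gabbr1 and Slc6a11 against Gabbr1: colours are groups and shapes the replicates of the 2 library series. Circles (replicates 1 to 3) line up for Gad1 and Gad2, with r = 0.89, and triangles (replicates 4 to 6) do not, with r = 0.22.

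The genes whose pattern over the 18 samples was most like a member's were found among 13510 genes with a mean of at least 5 CPM, by Pearson r of log2 CPM, as a description of samples that share groups and library series. For Gad1 they were Gprasp2 (r = 0.76), Bhlhb9 (0.72) and Smarca1 (0.72). For Gad2 they were Chl1 (r = 0.82), Oprk1 (0.80) and Dach1 (0.80). The antisense gene Gm14205 was first for Slc32a1 (r = 0.90), with which it shares exon bases, before Panx2 (0.80) and Abi3 (0.79). Slc6a11 was followed most closely by Xylt1 (r = 0.86), Hipk2 (0.84) and Ap3s2 (0.83), and Abat by Synj2, Adar and Gm7701 (each 0.94). For Abat, which differed between the library series, r was 0.53, 0.42 and 0.69 within replicates 1 to 3 and 0.92, 0.89 and 0.92 within replicates 4 to 6. Gabbr1 had Dynll2, Adnp (both 0.96) and Gm15491 (0.95), and Gabbr2 had Prex1 (0.94), Arhgef17 (0.93) and Ppp6r2 (0.92). Gabbr1 and Gabbr2 also differed between the library series. For Gabbr1, r was 0.83, 0.86 and 0.71 within replicates 1 to 3 and 0.91, 0.83 and 0.95 within replicates 4 to 6. For Gabbr2, r was 0.94, 0.98 and 0.89 within replicates 1 to 3 and 0.88, 0.79 and 0.83 within replicates 4 to 6. The first gene of Gad1 reached a lower r than that of any other member, and no member was among the 3 genes nearest to another.

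The 30 other genes of the pathway were in 3 lists, and 0 of them passed an FDR of 5% in either group comparison. Among 3 genes of uptake and vesicle loading, Slc6a12, which encodes the betaine and GABA transporter, was low, at 0.724 ± 0.610 CPM.

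Of 10 genes of synthesis and breakdown, Aldh9a1 and Aldh5a1 had the smallest p in the comparison of F2/metestrus with F1/proestrus. Aldh5a1 encodes the dehydrogenase that follows Abat in GABA breakdown, and its level was 45.4 ± 3.50 CPM in F2/metestrus and 43.2 ± 3.80 CPM in F1/proestrus. Glul, the glutamine synthetase of astrocytes, was at 247 ± 19.7 CPM in males and 225 ± 23.2 CPM in females (unadjusted p = 0.0519, adjusted p = 0.516 in edgeR).

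Of 17 auxiliary subunits and effectors of the GABA-B receptor, 1 in each comparison had an unadjusted p under 0.05, beside 2.48% of all genes between the female groups and 9.72% between the sexes. Kcnj6, a subunit of the inwardly rectifying potassium channels that the receptor opens, was at 6.19 ± 0.474 CPM in F2/metestrus and 6.93 ± 0.420 CPM in F1/proestrus (unadjusted p = 0.0449, adjusted p = 1.0 in edgeR). Ajap1, which encodes a protein that binds the receptor, was at 63.0 ± 4.81 CPM in males and 54.6 ± 6.21 CPM in females, a difference of 0.21 (SE 0.071; unadjusted p = 0.00782, adjusted p = 0.328 in edgeR). Between the library series 5 of the 30 genes were higher and 8 lower in replicates 4 to 6 at an FDR of 5%, together 13 of 30 beside 27.0% of all genes. Of the 17 receptor-related genes, 4 were higher and 4 lower. Cacna1b, the pore of the N-type calcium channel that the receptor inhibits, was lower by 0.56 on the log2 scale (SE 0.090), and Aldh5a1 was lower by 0.20 (SE 0.046), whereas Ajap1 was higher by 0.20 (SE 0.051) and Glul by 0.18 (SE 0.049).

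Among the lists of cell type markers, 1 excitatory and 1 Schwann cell gene passed the test between the sexes and 0 genes passed between the female groups. Between the library series 14% of all genes were higher and 13.0% lower in replicates 4 to 6 at an FDR of 5%. Beside this, 8 of 14 excitatory markers were higher, 3 of 12 inhibitory markers were higher and 2 lower, 3 of 6 microglial markers were higher and 1 lower, and 3 of 5 markers of oligodendrocyte precursors were lower and 1 higher. Of the pan-neuronal markers 2 of 7 were higher, of the Schwann cell markers 2 of 6, and of the oligodendrocyte markers 1 of 6. Of the 8 dorsal root ganglion markers 7 were tested, and 1 was higher. Of the astrocyte markers 1 of 8 was lower, and of the 5 endothelial markers 1 was higher and 1 lower. The part of these cells in the lower levels of Gabbr1, Gabbr2 and Abat was not tested. Grp, a peptide of excitatory dorsal horn neurons, was at 12.7 ± 3.52 CPM in males and 6.71 ± 1.53 CPM in females (adjusted p = 0.00539 in edgeR). Ncmap, a myelin gene of Schwann cells, was at 50.3 ± 12.2 CPM and 31.6 ± 4.34 CPM (adjusted p = 0.00654 in edgeR). None of the 12 markers of inhibitory dorsal horn neurons passed in either group comparison. Between the female groups 2 of them had an unadjusted p under 0.05 in edgeR, beside 2.48% of all genes. The 12 differences, F2/metestrus minus F1/proestrus, ran from -0.36 to 0.11 with a median of -0.069. That p was also reached by 6 of 7 dorsal root ganglion markers (median -4.99), whose sum was high in F1/proestrus replicate 5 alone. The part of these cells in the differences of the GABA genes was not tested. The sum of the 12 inhibitory markers ranged from 505 to 608 CPM in F1/proestrus, from 517 to 632 CPM in F2/metestrus and from 442 to 609 CPM in males. By library series the sum ranged from 560 to 632 CPM (median 596) in replicates 1 to 3. In replicates 4 to 6 the sum was lower, from 442 to 564 CPM (median 517). The largest part of the sum was Slc6a5, with a mean of 314 CPM over all samples and a range from 205 to 407 CPM. Pvalb, the next marker, had a mean of 48.5 CPM. The lower sum therefore does not describe the 12 markers taken singly. Their differences, replicates 4 to 6 minus 1 to 3, ran from -0.43 to 0.28 on the log2 scale. The median was 0.083, beside 0.0024 over all genes.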

How the data were processed

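RNA of 18 ipsilateral DHSC samples (6 males, 6 F1/proestrus and 6 F2/metestrus females) was sequenced. The authors deposited a raw count per sample for each of 55573 Ensembl genes, without normalization. They mapped reads uniquely to mm10 (Subread) and used featureCounts over exons. The labels name Subread 2.0.3, while the methods give another version, and the library kits of the labels and the methods differ. A further deposited table holds the authors' own DESeq2 comparison, of which only the gene symbols were used. Its fold changes and p-values were not used.

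Genes were placed by GENCODE vM21 (GRCm38). Counts were filtered with filterByExpr (minimum count 10, total 15), TMM-normalised and tested with edgeR 4.0.16 in R 4.3.3 (quasi-likelihood test, Benjamini-Hochberg adjustment over all genes tested, FDR of 5%), which was tested on simulated data. DESeq2 1.42.0, which the methods name, was an alternative. CPM are TMM-normalised; log2 CPM used a prior count of 2. Ratios and correlations were tested by permutation with scipy 1.17.1. Further alternatives were size factors, other filters, library series as a covariate or alone, the replicate number as a block and leaving out each sample.

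The members, the gene lists and the use of the library series were chosen with earlier results of these data known. Named beside the 7 members were, of each pathway list, the genes past the FDR or else the 2 with the smallest p in each comparison, of each marker list the genes past the FDR, and the 3 genes most correlated with each member. Some genes that this rule names are not reported here. Cacna1b and Aldh5a1 between the library series were chosen from those named. Intervals cover the spread between samples.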

Additional observations from a re-analysis of the deposited data

Results flagged for a closer look

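Abat was lowest in F2/metestrus replicate 5, at 859 CPM, far from the other 5 samples of its group, of which the nearest stood at 998 CPM and the highest at 1054 CPM. The gap to the nearest sample was 0.713 of the range of the group, above Dixon's critical value for 6 samples. Of 30 groups of values examined in this way, 1 stood out, and chance gives about 1 in 20. The sample belongs to replicates 4 to 6, in which Abat was lower. Without it, the difference in Abat between the female groups, F2/metestrus minus F1/proestrus, was 0.11 on the log2 scale in place of 0.062, and its adjusted p was again 1.0 in edgeR.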

How the results depend on the processing

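No member passed an FDR of 5% between the female groups or between the sexes under any alternative run, and the 3 members lower in replicates 4 to 6 were so with DESeq2, size factors and both other filters. With every difference between groups below 0.15 on the log2 scale, several signs changed. Between the female groups, replicates 4 to 6 alone gave 0.0060 for Gad1 and 0.14 for Gad2, and replicates 1 to 3 alone gave 0.016 for Gabbr2. Between the sexes, replicates 4 to 6 alone gave -0.0059 for Slc32a1 and -0.068 for Gabbr2, and replicates 1 to 3 alone gave 0.047 for Gabbr1. The interaction of series and female group was 0.00039 for Slc32a1 with size factors and 0.0080 with at least 10 counts in every sample, against -0.0052. The log2 difference in the ratio of Gad1 to Gad2 was 0.069 between the female groups and 0.021 between the sexes in replicates 1 to 3, and that of Slc32a1 to Gad1 plus Gad2 was -0.013 between the female groups in replicates 4 to 6. The cause was not tested.

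Leaving out each sample in turn, the difference between the female groups ran from -0.036 to 0.044 for Gad2, from -0.0039 to 0.079 for Slc32a1, from -0.026 to 0.073 for Gabbr1, from -0.025 to 0.042 for Gabbr2, from -0.063 (without F1/proestrus replicate 5) to -0.0080 (without F1/proestrus replicate 2) for Gad1 and from 0.041 to 0.11 (without F2/metestrus replicate 5) for Abat. Between the sexes it ran from -0.094 to 0.015 for Gabbr1 and from -0.0021 to 0.082 for Gabbr2, from 0.0031 (without male replicate 2) to 0.073 for Slc32a1, from -0.095 (without male replicate 2) to -0.029 (without male replicate 4) for Slc6a11, from -0.095 (without male replicate 1) to -0.038 for Gad2 and from -0.10 (without male replicate 2) to -0.038 (without male replicate 5) for Abat. Between the library series it ran from -0.043 to 0.0023 for Gad1 and from -0.034 to 0.030 for Slc32a1, and Gad2 passed the test without F2/metestrus replicate 3 (-0.14, adjusted p = 0.0483 in edgeR). The ratio of Gad1 to Gad2 ran from -0.055 to 0.021 between the female groups and from -0.021 to 0.016 between the sexes, and that of Gabbr1 to Gabbr2 from -0.017 to 0.058 between the female groups and from -0.12 (without male replicate 1) to -0.046 (without male replicate 4) between the sexes. That of Slc32a1 to Gad1 plus Gad2 ran from 0.024 (without F1/proestrus replicate 2) to 0.12 (without F1/proestrus replicate 4) between the female groups.

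Over all genes, DESeq2 called 2 between the female groups, where edgeR called 0. Between the sexes the 49 genes called became 166 with DESeq2, 134 with the series as a covariate, 31 with at least 10 counts in every sample, 16 and 13 in replicates 1 to 3 and 4 to 6 alone, and 13 and 22 against F1/proestrus and F2/metestrus alone. Leaving out each sample gave 25 (without male replicate 5) to 77 (without F1/proestrus replicate 5). The interaction of series and female group called 2 genes, 177 without a filter (of which 2 in the pathway lists) and 0 with at least 10 counts in every sample. Of the pairs of members, 1 and 0 were correlated past the FDR within the series, against 6 over all samples.

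Same-numbered samples of different groups did not deviate together more than others of their series: over 18 pairs the correlation of their deviations ran from -0.10 to 0.23 with a median of 0.082, against a median of 0.098 between other numbers of the same series. Of these pairs 9 were over 0.1, and 7 of 18 samples correlated best with their own number. With the replicate number as a block, 148 genes were called between the sexes and 0 between the female groups, and 0 of the 7 members in either.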
